A study of Mus musculus with 15 samples.

Results

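The 10 transcription factors and cofactors that govern red cell formation were followed in fetal liver erythroid progenitors of wildtype and Rpl5 mutant mouse embryos at stage E12.5. The 10 genes were the rows named Gata1, Gata2, Klf1, Tal1, Lmo2, Zfpm1, Nfe2, Gfi1b, Ldb1 and Bcl11a in tables of 55487 genes, and all 10 passed the filter on low counts in both groups of mice. They were taken by name, and the rule set no threshold on measured values. The title of the series concerns Diamond Blackfan anemia syndrome, in which too few red cells are made. Rpl5, the mutated gene, codes for a component of the ribosome.

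The 15 libraries fell into 5 groups of 3, all of strain 129S6/SvEvTac. In group 1 of mice there were 3 libraries of wildtype and 3 of mutant embryos, labelled as polyA RNA, and for its mutants the genotype label is only the letter M, with no allele. In group 2, labelled as total RNA, each of wildtype, mutant and low-yield mutant had 3 libraries. Both mutant arms of group 2 carried the allele written Rpl5plusSkax23Jus in the deposited sample sheet. The labels give the tissue as fetal liver and the series design calls the cells erythroid progenitors. The labels used here do not define "low-yield" or the isolation, and do not say whether each library came from a separate embryo, so p-values measure only the spread between these libraries, which may be technical. Levels were not compared between the groups of mice, whose RNA was prepared differently.

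GATA1 and GATA2 are zinc-finger proteins that bind the same DNA motif. GATA2 maintains early blood progenitors, and as these commit to the red lineage GATA1 displaces it from shared sites, including enhancers of Gata2 itself, an exchange known as the GATA switch. GATA1 works with its cofactor FOG1 (the product of Zfpm1) and in a complex of TAL1, LMO2 and LDB1, while KLF1, NF-E2, GFI1B and BCL11A act beside it on globin and other erythroid genes.

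The sequences before the starts of Klf1 and of both GATA genes, and before the first of 2 starts of Tal1, are shown. The reason is that Klf1 was called lower in every mutant arm and Tal1 in 2 of the 3. The GATA genes are the partners in the exchange. Of the 10 genes 8 were matched, all but Nfe2 and Lmo2. Each is the 250 bases before an annotated start, written 5′ to 3′ on the strand of the gene, from RefSeq for GRCm38.p6. Capitals mark a GATA motif, the kind of site both GATA proteins bind, which was searched as AGATAA and in 3 other forms. These were TGATAA, and the same pair with G as the last letter, that is the form AGATAG and the form TGATAG. Capitals also mark a CACCC box, the type of site bound by KLF1, and an E-box, a site of TAL1 with its E-protein partners. The E-box was searched as CAGATG and as the palindrome written CAGCTG. Both strands were searched, so TTATCA and TTATCT are GATA motifs and GGGTG is a CACCC box on the opposite strand.
Klf1, chr8:84901732-84901981, plus strand: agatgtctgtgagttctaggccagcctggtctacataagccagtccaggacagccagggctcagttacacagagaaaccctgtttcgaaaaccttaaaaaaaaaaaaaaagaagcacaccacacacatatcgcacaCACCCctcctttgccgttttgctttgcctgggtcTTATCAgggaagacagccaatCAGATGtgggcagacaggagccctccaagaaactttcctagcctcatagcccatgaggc
Tal1 first start, chr4:115056176-115056425, plus strand: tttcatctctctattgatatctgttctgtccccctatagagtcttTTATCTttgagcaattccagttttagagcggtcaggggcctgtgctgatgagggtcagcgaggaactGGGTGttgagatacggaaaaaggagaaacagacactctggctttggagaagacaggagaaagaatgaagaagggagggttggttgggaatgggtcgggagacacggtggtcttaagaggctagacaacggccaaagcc
Gata1, chrX:7967911-7968160, minus strand: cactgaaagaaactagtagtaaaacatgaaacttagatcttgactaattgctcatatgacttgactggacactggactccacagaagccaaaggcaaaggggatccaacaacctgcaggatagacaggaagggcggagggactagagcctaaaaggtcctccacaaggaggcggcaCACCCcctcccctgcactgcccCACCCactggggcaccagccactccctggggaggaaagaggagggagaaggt
Gata2 first start, chr6:88193641-88193890, plus strand: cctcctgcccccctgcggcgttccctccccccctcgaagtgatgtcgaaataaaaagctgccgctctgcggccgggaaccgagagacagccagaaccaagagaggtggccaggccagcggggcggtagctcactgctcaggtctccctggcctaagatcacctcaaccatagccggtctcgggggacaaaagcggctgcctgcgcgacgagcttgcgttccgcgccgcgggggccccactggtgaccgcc
Gata2 second start, chr6:88198414-88198663, plus strand: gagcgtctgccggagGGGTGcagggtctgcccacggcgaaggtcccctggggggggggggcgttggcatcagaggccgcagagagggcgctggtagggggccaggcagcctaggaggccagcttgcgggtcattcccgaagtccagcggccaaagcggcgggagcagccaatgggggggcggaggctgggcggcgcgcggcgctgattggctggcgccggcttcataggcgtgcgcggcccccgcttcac

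The Klf1 sequence held a CACCC box 114 to 110 bases, a GATA motif 80 to 75 bases and an E-box 59 to 54 bases before the start. Among the 12 starts of the 8 matched genes, it alone held all 3 kinds. These starts are those of RefSeq, while the gene spans given below are those of GENCODE M21. The Klf1 window ends inside the span of its gene, and the Gata1 window lies within that of Gata1. The first Tal1 start held a GATA motif 205 to 200 bases before it. The second Tal1 start (chr4:115057561-115057810, not printed) held none of the motifs searched. Gata1 held CACCC boxes but no GATA motif in this window. Neither Gata2 start held a GATA motif. A GATA motif was present before 4 of the 12 starts (33.3%), against 26.5% of all 32851 starts of the same length, a CACCC box before 10 (83.3% against 52.0%) and an E-box before 1 (8.33% against 25.5%). The NF-E2 motif TGAGTCA was before none of the 12, against 4.46% of all starts. No 2 matches shared a base in these sequences, and a match is a description of the letters, not evidence of binding.

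The libraries held 48510828 to 58513669 counts in group 1 and 24954324 to 44827821 in group 2, with 17165 to 19394 genes detected. Rpl5 was lower in every mutant library than in any wildtype library of its group, and its log2 fold change over both groups was -0.39, though 953 bases of its exons are shared with Fam69a on the other strand (edgeR's quasi-likelihood test, SE 0.06, adjusted p 6.13e-05). All 10 markers of erythroid progenitors were detected in every group. Their summed level, in CPM (counts relative to library size, scaled by TMM), was 4060 to 4525 in group 1 wildtype and 3281 to 3480 in group 1 mutant libraries. It was 3829 to 5069 in group 2 wildtype, 3305 to 3790 in mutant and 3072 to 3730 CPM in low-yield libraries, so every mutant library was below every wildtype library of its group. The part of this lower sum in the levels of the factors was not tested. The 10 macrophage markers summed to at most 10.7 CPM, with Timd4 at 0 in all 5 groups and C1qc in 4 of them. Markers of hepatocytes summed to 34.9 to 64.9 CPM in group 1 wildtype and 6.10 to 22.5 CPM in group 1 mutant libraries, where 3 of 10 were called lower, against 6.78% of all genes (0 to 2 on leaving out any 1 library of group 1). In group 2 they summed to 10.1 to 79.9 CPM in wildtype, 9.17 to 49.9 CPM in mutant and 43.6 to 50.2 CPM in low-yield libraries, which overlap, and none was called. In bulk libraries, fewer cells of a type and less RNA per cell cannot be told apart.

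Among the 10 factors, Klf1 was lower and Gata2 higher in mutant libraries, Tal1, Nfe2 and Zfpm1 were lower by smaller amounts, and the other 5 were not called. Here a gene is called when its adjusted p, over all genes tested, was under 0.05 by edgeR's quasi-likelihood test. In group 1, 2 of the 10 were called lower (Klf1 and Tal1), against 6.78% of all genes tested, and none higher, against 5.79%. In the group 2 mutant 2 of 10 were called lower (Klf1 and Nfe2), against 2.95%, and Gata2 was called higher, against 3.32%. In the low-yield mutant 3 of 10 were called lower (Klf1, Tal1 and Zfpm1), against 5.86%, and Gata2 was called higher, against 6.68%, a comparison that uses the same wildtype libraries. A fit of the 12 wildtype and mutant libraries, blocked on the group of mice, called 4 of 10 lower (Klf1, Tal1, Zfpm1 and Nfe2) and Gata2 higher, against 9.8% of genes in each direction. The CPM of mutant and wildtype libraries did not overlap for 5 of the 10 in group 1 (31.6% of all genes), in the group 2 mutant (23.2%) and in the low-yield mutant (29.9%). Counts of called factors rest partly on particular libraries: group 1 gave 1 without wildtype replicate 1 or 2 or mutant replicate 2 or 3. The group 2 mutant gave 1 without wildtype replicate 2 or 3 or mutant replicate 1 or 3, and the low-yield mutant gave 2 without wildtype replicate 2 or low-yield replicate 1 or 2. The fit over both groups gave 3 without group 2 wildtype replicate 2.

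**Figure D1:**
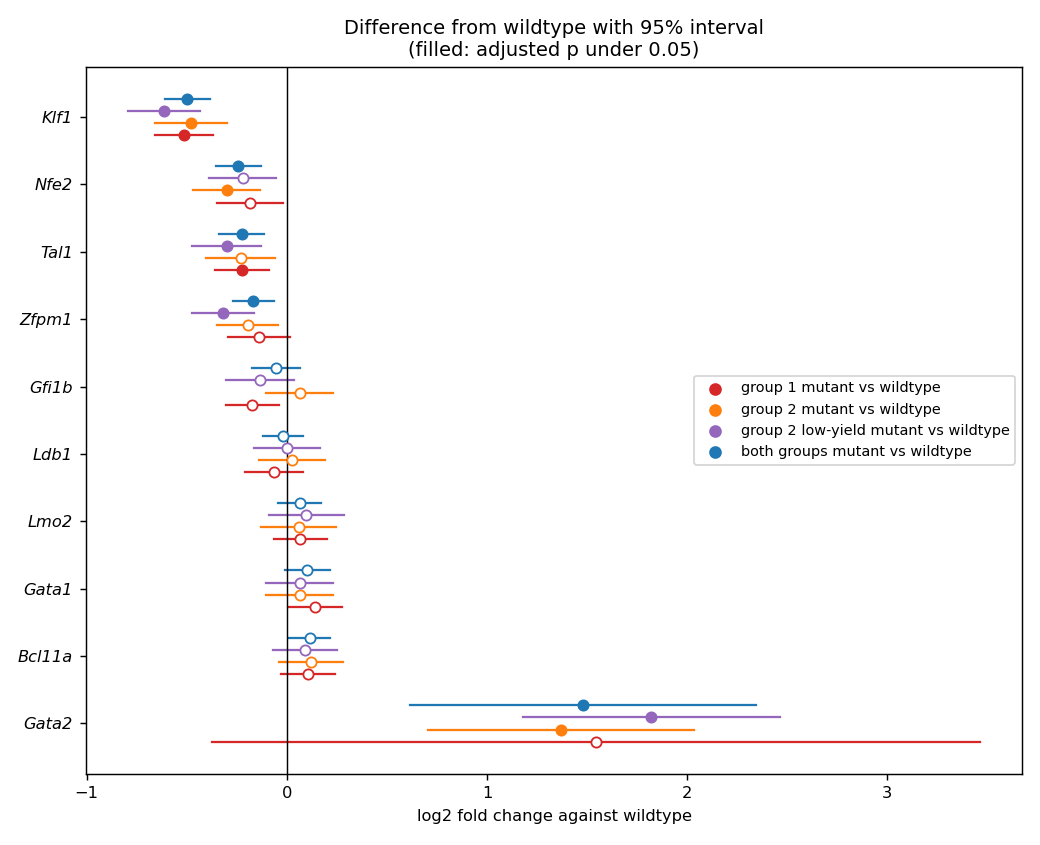
Log2 fold change against wildtype (horizontal axis) of each of the 10 genes, with its 95% interval, in 4 comparisons; filled points had an adjusted p under 0.05. Klf1 lay left of 0 with filled points in all 4 comparisons, and the interval of Gata2 in group 1 ran from -0.37 to 3.46.

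Gata2 (ENSMUSG00000015053; GRCm38 chromosome 6, 88193891 to 88207032, plus strand) was the least abundant of the 10 and the only one called higher. In group 2 its level was 4.24, 1.88 and 2.52 CPM in the wildtype libraries, 7.46, 7.07 and 7.36 CPM in the mutant libraries and 10.8, 13.1 and 6.47 CPM in the low-yield libraries. Every mutant library of either arm lay above every wildtype library, and the 3 mutant libraries were close together while the low-yield libraries spread. Gata2 was 2.58-fold higher in the mutant (log2 1.37, SE 0.31, 95% interval 0.70 to 2.03, adjusted p 0.0163). For the low-yield mutant it was 3.54-fold higher (log2 1.82, SE 0.30, interval 1.18 to 2.46, adjusted p 0.00107). The mutant's call was lost without wildtype replicate 2 (adjusted p 0.0791), wildtype replicate 3 (0.0746), mutant replicate 1 (0.0530) or mutant replicate 3 (0.0619). The low-yield mutant's call held in all alternatives run.

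In group 1 Gata2 was at 1.57, 6.06 and 5.55 CPM in wildtype replicates 1, 2 and 3 and at 4.80, 16.9 and 17.0 CPM in mutant replicates 1, 2 and 3. The groups overlapped, because replicate 1 was low in both genotypes, and within each replicate number the mutant was the higher. The log2 fold change was 1.55 (SE 0.72, interval -0.37 to 3.46, adjusted p 0.258). With the replicate number as a block it was 1.56 with an adjusted p of 2.44e-07, though the labels state no pairing. The numbers of group 1 met the criterion for paired libraries. Their same-number correlations (0.254 to 0.610) nevertheless overlapped with the others (-0.539 to 0.382). Over both groups the estimate was 1.48 (SE 0.39, adjusted p 0.0207), a call lost without group 1 mutant replicate 2 (0.0513) or 3 (0.0613) or group 2 wildtype replicate 2 (0.0501) or 3 (0.0507).

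Gata1 (ENSMUSG00000031162; chromosome X, 7959260 to 7978071, minus strand), the factor that takes over from GATA2, was not called in any comparison. Its level was 208, 213 and 206 CPM in group 1 wildtype and 239, 214 and 237 CPM in group 1 mutant libraries. Within group 2, Gata1 was at 384, 365 and 347 CPM in wildtype, 407, 348 and 390 CPM in mutant and 392, 377 and 377 CPM in low-yield libraries. All 3 group 1 mutants lay above the wildtype libraries, the lowest by a small margin, while the groups overlapped in group 2. The log2 fold change was 0.14 in group 1 (adjusted p 0.168), 0.06 in each mutant arm of group 2 (0.718 and 0.657) and 0.10 over both groups (interval -0.01 to 0.22, adjusted p 0.208).

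The ratio of Gata1 to Gata2 was computed per length of exon in each library. In group 1 the ratio was 294, 77.7 and 82.0 in wildtype and 110, 28.1 and 30.8 in mutant libraries. The wildtype libraries of group 2 had ratios of 200, 431 and 305, the mutants 121, 109 and 117, and the low-yield mutants 80.0, 63.8 and 129. Replicate 1 had the highest ratio of its genotype in group 1, so those groups overlapped, and in group 2 every mutant library of both arms was below every wildtype library. The difference of mean log2 ratios was -1.43 in group 1, -1.36 in the group 2 mutant and -1.77 in the low-yield mutant, given as descriptions. Replicate 1 moved the group 1 value, which was -0.80 without that of wildtype and -2.07 without that of the mutants. Gata1 exceeded Gata2 per length in all 15 libraries.

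**Figure D2:**
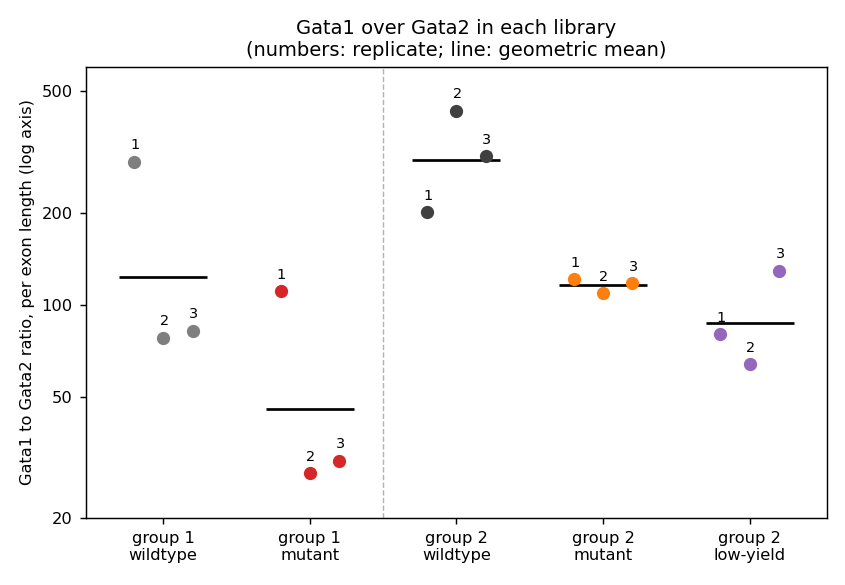
Ratio of Gata1 to Gata2 per exon length (vertical log axis) in each library; numbers give the replicate and the line is the geometric mean of the 3. Replicate 1 stands highest in both groups of group 1 mice, and the wildtype libraries of group 2, at 200 to 431, lie above the mutant libraries of both arms, at 63.8 to 129.

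Zfpm1 (ENSMUSG00000049577; chromosome 8, 122282141 to 122337251, plus strand) encodes FOG1, the cofactor that GATA1 needs at many of its sites. Its level was 1249, 1371 and 1220 CPM in group 2 wildtype, 1101, 1114 and 1137 CPM in mutant and 1014, 1018 and 1044 CPM in low-yield libraries. The 3 arms did not overlap and stood in that order. The log2 fold change was -0.20 in the mutant (SE 0.07, adjusted p 0.128, or 0.0471 with DESeq2) and -0.32 in the low-yield mutant (SE 0.07, adjusted p 0.00925), a change of -19.9%. The second of these calls was lost without wildtype replicate 2 (0.0602) or low-yield replicate 1 (0.0676) or 2 (0.0611). In group 1 it was at 613, 655 and 714 CPM in wildtype and 571, 592 and 636 CPM in mutant libraries, which overlap, with a log2 fold change of -0.14 (adjusted p 0.229). Over both groups it was -0.17 (SE 0.05, adjusted p 0.0205), and 0.0627 or 0.0653 without group 1 wildtype replicate 3 or group 2 wildtype replicate 2.

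Tal1 (ENSMUSG00000028717; chromosome 4, 115056426 to 115071755, plus strand), the helix-loop-helix protein of the GATA1 complex, was lower in mutant libraries of both groups. In group 1 it was at 407, 407 and 379 CPM in wildtype and 358, 325 and 341 CPM in mutant libraries. Tal1 reached 593, 623 and 612 CPM in the wildtype arm of group 2, 532, 472 and 554 CPM in its mutant arm and 489, 466 and 529 CPM in the low-yield arm. No mutant library reached the lowest wildtype library of its group. Group 1 gave a log2 fold change of -0.22 (SE 0.06, adjusted p 0.0368), the group 2 mutant -0.23 (SE 0.08, adjusted p 0.108), the low-yield mutant -0.30 (SE 0.08, adjusted p 0.0236) and the fit over both groups -0.23 (SE 0.05, adjusted p 0.00561). The group 1 call was lost without wildtype replicate 1 (0.158) or 2 (0.144) or mutant replicate 2 (0.0722) or 3 (0.155). The low-yield call was lost without wildtype replicate 2 (0.0910) or 3 (0.0669) or low-yield replicate 1 (0.121) or 2 (0.152).

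Lmo2 and Ldb1, which encode its partners in the complex, were not called in any comparison. Lmo2 (ENSMUSG00000032698; chromosome 2, 103957986 to 103981878, plus strand), the LIM-domain bridge between TAL1 and LDB1, ranged from 348 to 360 CPM in group 1 wildtype and from 355 to 395 CPM in group 1 mutant libraries. In group 2 it ranged from 316 to 373 CPM in wildtype, 348 to 379 CPM in mutant and 341 to 410 CPM in low-yield libraries, so all groups overlapped. Its log2 fold change over both groups was 0.06 (interval -0.04 to 0.17, adjusted p 0.437). Ldb1 (ENSMUSG00000025223; chromosome 19, 46031570 to 46045214, minus strand), whose protein joins distant enhancers to promoters, was at 419 to 474 CPM in group 1 wildtype and 401 to 439 CPM in group 1 mutant libraries. Within group 2, Ldb1 was at 560 to 592 CPM in wildtype, 557 to 612 CPM in mutant and 531 to 608 CPM in low-yield libraries, again with overlap. The log2 fold change was -0.02 over both groups (interval -0.12 to 0.08, adjusted p 0.822). Ldb1 shares 177 bases of exon with Pprc1 on the other strand, and since the use of strand is not stated, reads there cannot be told apart.

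Klf1 (ENSMUSG00000054191; chromosome 8, 84901928 to 84905291, plus strand), the erythroid Krüppel-like factor that activates adult beta-globin and many other red cell genes, was lower in every mutant arm. In group 1 it was at 570, 588 and 507 CPM in wildtype and 391, 396 and 378 CPM in mutant libraries. Klf1 reached 840, 871 and 787 CPM in the wildtype arm of group 2, 597, 565 and 629 CPM in its mutant arm and 550, 491 and 591 CPM in the low-yield arm. No group of mutants overlapped with its wildtype group, and the mutant and low-yield libraries overlapped with each other. Group 1 gave a log2 fold change of -0.51 (SE 0.07, interval -0.66 to -0.37, adjusted p 0.000691), the group 2 mutant -0.48 (SE 0.08, adjusted p 0.00392) and the low-yield mutant -0.61 (SE 0.08, adjusted p 0.000358). Over both groups it was -0.50 (SE 0.05, adjusted p 2.48e-06), a change of -29.1% (interval -34.5% to -23.4%). Klf1 was called lower than wildtype in every alternative run.

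Nfe2 (ENSMUSG00000058794; chromosome 15, 103248212 to 103258403, minus strand) encodes the large subunit of NF-E2, which binds the globin locus control regions with a small Maf protein. It was at 76.8, 78.4 and 82.9 CPM in group 1 wildtype and 63.4, 74.5 and 71.5 CPM in mutant libraries. Within group 2, Nfe2 was at 91.9, 88.4 and 91.2 CPM in wildtype, 78.6, 72.8 and 69.2 CPM in mutant and 78.2, 79.0 and 75.7 CPM in low-yield libraries. Mutant libraries lay below wildtype libraries in all 3 comparisons. Nfe2 gave a log2 fold change of -0.30 in the group 2 mutant (SE 0.08, adjusted p 0.0351) and -0.24 over both groups (SE 0.05, adjusted p 0.00338), with -0.19 in group 1 (SE 0.08, adjusted p 0.133). Low-yield libraries gave -0.22 (SE 0.08, adjusted p 0.0807). The group 2 mutant's call was lost in 10 of 14 alternatives, with adjusted p 0.0554 to 0.178 on leaving out any wildtype or mutant library of group 2 or low-yield replicate 1 or 2. It was 0.0725 with no filter on low counts and 0.0766 with only the 6 compared libraries, while the call over both groups held in all 16 alternatives.

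Gfi1b (ENSMUSG00000026815; chromosome 2, 28609450 to 28621982, minus strand), a repressor that recruits LSD1 in erythroid and megakaryocyte cells, was at 210, 215 and 230 CPM in group 1 wildtype and 199, 190 and 193 CPM in group 1 mutant libraries. Within group 2, Gfi1b was at 309, 278 and 275 CPM in wildtype, 311, 309 and 282 CPM in mutant and 262, 248 and 275 CPM in low-yield libraries. The groups were separate in group 1 and overlapped with wildtype in group 2. Gfi1b gave a log2 fold change of -0.17 for group 1 (SE 0.06, adjusted p 0.0844, or 0.0346 with DESeq2), 0.06 in the group 2 mutant (adjusted p 0.718) and -0.13 in low-yield libraries (adjusted p 0.306). Bcl11a (ENSMUSG00000000861; chromosome 11, 24078056 to 24174123, plus strand), a repressor of embryonic and fetal globin genes, was at 327 to 359 CPM in group 1 wildtype and 353 to 376 CPM in group 1 mutant libraries. Within group 2, Bcl11a was at 426 to 457 CPM in wildtype, 452 to 504 CPM in mutant and 447 to 489 CPM in low-yield libraries. Its log2 fold change was 0.11 over both groups (interval 0.01 to 0.22, adjusted p 0.112), and no comparison called it. Bcl11a shares 316 bases of exon with 4930538E20Rik on the other strand, which held 62 counts over all libraries.

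**Figure D3:**
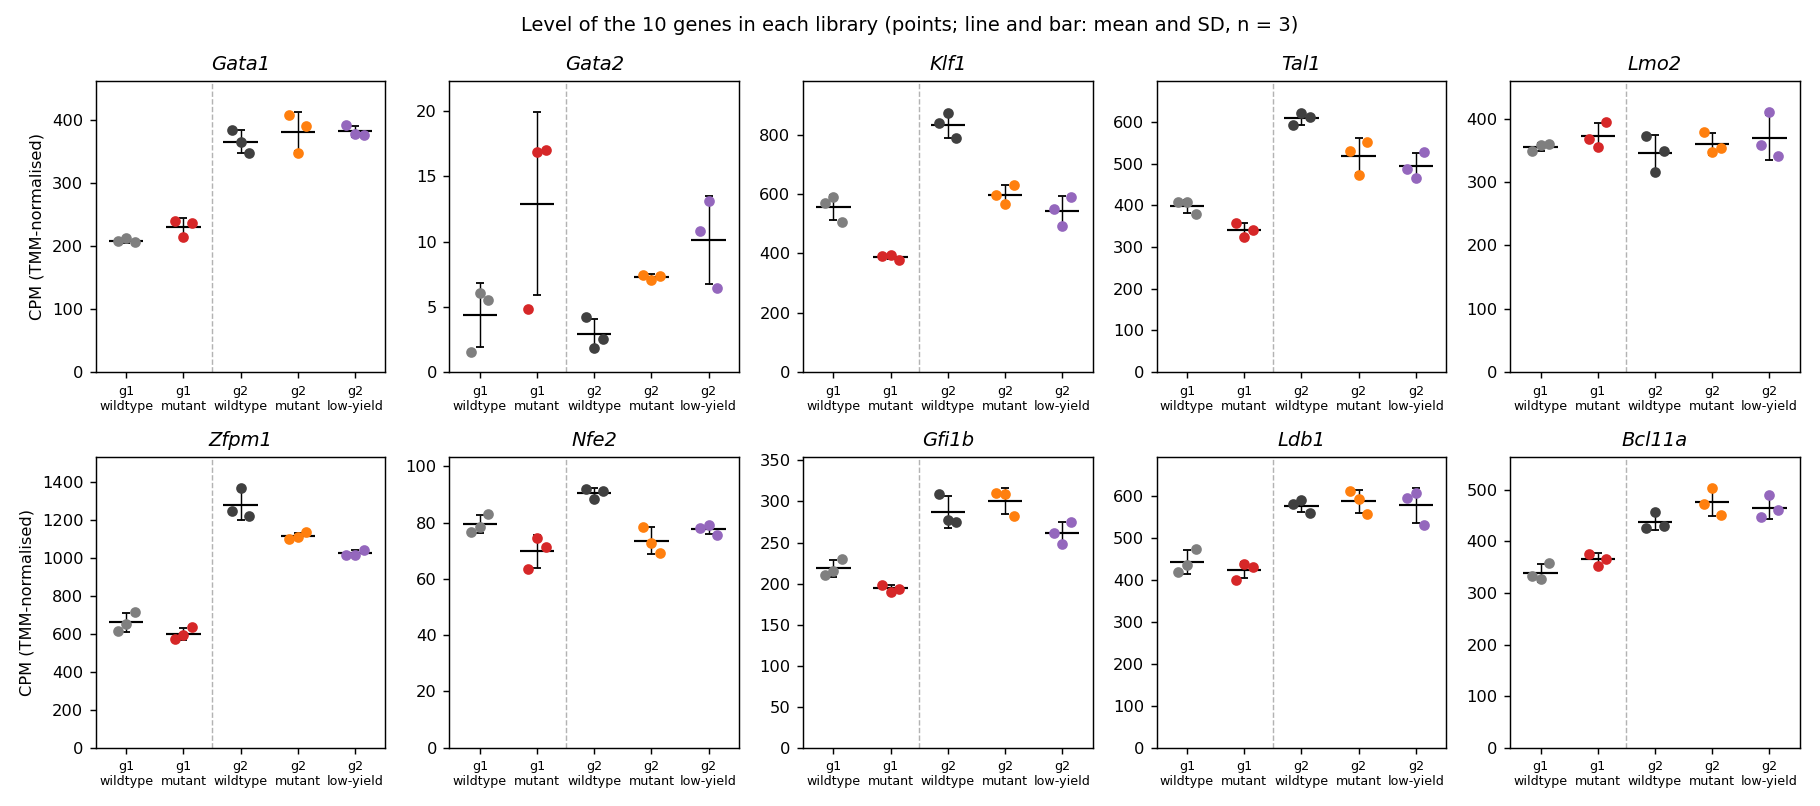
CPM of each of the 10 genes in every library (points), with the mean and SD of 3 libraries, for wildtype and mutant of group 1 (left of the dashed line) and wildtype, mutant and low-yield mutant of group 2. Klf1 and Tal1 points of the mutants lie below the wildtype points of the same group of mice, and Gata2 in group 1 shows replicate 1 apart from the other libraries of each genotype.

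The low-yield libraries were also set against the other mutants of group 2 directly. No gene was called among the 15024 tested (0.0%), none of the 10 factors included, while 480 genes (3.19%) had an unadjusted p under 0.05 and DESeq2 called 6. The estimate for Gata2 was 0.45 (interval -0.10 to 1.01), that for Klf1 -0.13 (-0.31 to 0.04) and that for Gfi1b -0.20 (-0.37 to -0.03; unadjusted p 0.0241, adjusted p 1.00). Zfpm1 and Gfi1b were lower in all 3 low-yield libraries than in any mutant library, as were 4.15% of genes tested.

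Whether the effect of genotype differed between the groups of mice was tested as an interaction over the 12 wildtype and mutant libraries. It called 3 of 15954 genes (0.0188%), none of them among the 10. At an unadjusted p under 0.05 there were 342 genes (2.14%), of the 10 Gfi1b alone. The difference, group 2 minus group 1, was 0.05 for Klf1 (interval -0.18 to 0.29), -0.15 for Gata2 (-2.07 to 1.76) and 0.01 for Tal1 (-0.23 to 0.25). Gfi1b had an interval that did not include 0 (0.25, 0.03 to 0.47, unadjusted p 0.0276), with an adjusted p of 1.00.

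Set by CPM per kilobase of exon within each group, Klf1 was the most abundant of the 10 and Gata2 the least in all 5 groups. Klf1 was at 363 ± 28.0 (SD, n = 3) in group 1 wildtype, 254 ± 5.91 in group 1 mutant, 544 ± 27.9 in group 2 wildtype, 390 ± 20.9 in group 2 mutant and 355 ± 33.0 in low-yield libraries. Gata2 was at 0.813 ± 0.456, 2.39 ± 1.3, 0.533 ± 0.226, 1.35 ± 0.0378 and 1.88 ± 0.623 CPM per kilobase in the same order. Zfpm1 and Lmo2 stood next below Klf1 in every group, with ranges that overlapped only in the group 1 mutants. Gfi1b, Gata1, Ldb1 and Tal1 formed the middle. Neighbours there that overlapped were Ldb1 with Tal1 and Tal1 with Gata1 in group 1 wildtype, Gata1 with Ldb1 in group 1 mutant, and Gfi1b with Gata1 in group 2 wildtype and mutant. Ldb1 and Tal1 also overlapped in both mutant arms of group 2, as did Lmo2 with the gene below it in each group 2 arm. Bcl11a stood eighth and Nfe2 ninth, with means of 23.4 to 36.1 CPM per kilobase, except in group 1 wildtype, where the order was the reverse and they overlapped.

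Across the 15 libraries, with log2 CPM centred on each group of mice, Klf1 and Tal1 varied together (Pearson's r 0.94) and Gata2 ran against both (r -0.81 with Klf1 and -0.85 with Tal1). These correlations include the difference between genotypes and share the libraries, so they are descriptions. Of 10169 genes with a mean of at least 2 CPM in both groups of mice, those most like Klf1 were Scarb1 (r 0.976), Cdc42ep4 (0.972), Epor (0.972), Blvrb (0.971) and Alad (0.969). Epor encodes the erythropoietin receptor, Scarb1 a receptor for high-density lipoprotein, and Alad and Blvrb enzymes of heme synthesis and breakdown. Their log2 fold changes over both groups, from -0.37 for Epor to -0.62 for Blvrb, follow from the choice by likeness to Klf1 and are given with no test. The genes most like Gata2 were Arhgdib (r 0.969), Tmsb4x (0.967), Hdc (0.965), Fli1 (0.961) and Cotl1 (0.960). Hdc makes histamine, chiefly in mast cells and basophils, and Fli1 is an Ets factor of megakaryocytes, endothelium and progenitors. Their log2 fold changes over both groups ran from 0.85 for Cotl1 to 1.65 for Hdc, which likewise follows from how they were chosen.

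Markers of other blood cells were measured beside Gata2. The 10 markers of mast cells, basophils and eosinophils summed to 6.28 to 25.1 CPM in group 2 wildtype, 90.4 to 97.6 CPM in mutant and 77.7 to 236 CPM in low-yield libraries. Of these 10, Cma1, Fcer1a and Tpsb2, defining markers of mast cells, were at 0 in all 3 arms of group 2, and Mcpt8 was at 0 in wildtype and mutant. Only 4 of the 10 were tested in group 2, and for 3 of these (Hdc, Prg2 and Epx) every wildtype library was over the filter's minimum, 10 counts at the median depth in 3 libraries. The fourth passed through the mutant arms and is not counted. Of the 3, Hdc was called higher in the mutant, where 3.32% of all genes were, and all 3 in the low-yield mutant, where 6.68% were. Hdc, which is also 1 of the genes chosen for likeness to Gata2, rose by 2.41 and 3.11 on the log2 scale. In group 1 the sum was 33.9 to 352 CPM in wildtype and 141 to 494 CPM in mutant libraries, with replicate 1 lowest in both. None of the 5 with every wildtype library over the minimum was called there, or 2 with the replicate block, with which 2863 of 14048 genes were called. Fcer1a and Tpsb2 were again at 0 in both genotypes, and Mcpt8 in wildtype and Cma1 in mutant libraries. The group 2 mutant's count was 2 without wildtype replicate 1 or with the replicate block (1309 of 15024 genes called). It was 3 without low-yield replicate 1, with only the 6 compared libraries or with DESeq2. The low-yield count was 1 without wildtype replicate 2 or 3 or with only the 6 compared libraries.

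Neutrophil and monocyte markers summed to 6.73 to 15.3 CPM in group 2 wildtype, 54.1 to 148 CPM in mutant and 99.3 to 173 CPM in low-yield libraries, and none of the 10 was at 0 throughout a group. Mpo, the myeloperoxidase of granules, rose by 3.03 in the mutant (SE 0.57, adjusted p 0.0339) and by 3.56 in the low-yield mutant (SE 0.57, adjusted p 0.0116). The mutant's call was lost on leaving out any wildtype library, mutant replicate 1 or 3 or low-yield replicate 2 or 3. It was also lost with the replicate block or with only the 6 compared libraries (adjusted p 0.0507 to 0.120 over all of these). The low-yield call was lost without wildtype replicate 2 (0.0524). Of the 9 markers tested in group 2, 7 were under the filter's minimum in at least 1 wildtype library and passed through the mutant arms, so no count of calls is given for them. In group 1 the sum was 78.9 to 538 CPM in wildtype and 140 to 1102 CPM in mutant libraries, replicate 1 being lowest in both. None of the 9 with every wildtype library over the minimum was called there, or 4 with the replicate block, with which 2863 of 14048 genes were called. Megakaryocyte markers summed to 40.1 to 45.4 CPM in group 2 wildtype, 41.9 to 48.0 CPM in mutant and 60.2 to 61.2 CPM in low-yield libraries, with Ppbp at 0 in wildtype. Itga2b, the platelet integrin chain, rose by 0.77 in the mutant (adjusted p 0.0135) and by 1.62 in low-yield libraries (SE 0.16, adjusted p 3.57e-05). The mutant's call was lost without wildtype replicate 3 (0.0555) or mutant replicate 1 (0.0541). Vwf, more abundant than Itga2b in the wildtype arm of group 2, went the other way. It was at 26.31, 25.48 and 22.12 CPM in wildtype, 13.81, 19.30 and 15.62 CPM in mutant and 10.87, 15.22 and 20.99 CPM in low-yield libraries. Every library of both mutant arms lay below every wildtype library for Vwf. Of the 8 markers tested in group 2, 3 passed through the mutant arms and the other 5 are counted here. Itga2b alone was called in the mutant, higher, as were 3.32% of all genes. In the low-yield mutant 2 were called higher and 1 lower, beside 6.68% and 5.86% of all genes. The mutant's count was 2 without low-yield replicate 1 or 3 or with only the 6 compared libraries, and 3 with DESeq2. In group 1 these markers summed to 29.7 to 48.0 CPM in wildtype and 35.9 to 52.7 CPM in mutant libraries. Of the 8 with every wildtype library over the minimum, Vwf alone was called in group 1, lower, as were 6.78% of all genes. The count there was 3 with the replicate block, 2 with DESeq2 and 0 without wildtype replicate 2 or 3 or mutant replicate 2 or 3.

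Endothelial markers summed to 20.9 to 25.2 CPM in group 2 wildtype, 21.5 to 30.3 CPM in mutant and 24.8 to 26.1 CPM in low-yield libraries, with Emcn at 0 in wildtype and mutant. Pecam1, an adhesion molecule of endothelium that platelets and leukocytes also carry, rose by 1.79 in the mutant (SE 0.39, adjusted p 0.00994), a call lost without wildtype replicate 2 (0.0517), and was also called higher in the low-yield mutant. Eng, the most abundant marker of this kind, went the other way in the low-yield mutant and was not called. It was at 19.0, 22.7 and 23.3 CPM in wildtype, 17.0, 23.7 and 22.9 CPM in mutant and 17.7, 13.6 and 17.7 CPM in low-yield libraries. The other 4 of the 6 tested in group 2 had no wildtype library over the filter's minimum and are not counted. In group 1 the endothelial sum was 16.6 to 19.4 CPM in wildtype and at most 23.8 CPM in mutant libraries, and none of the 3 with every wildtype library over the minimum was called, or 1 with the replicate block, with DESeq2 or without mutant replicate 1. Stem and multipotent progenitor markers summed to 60.8 to 81.1 CPM in group 2 wildtype and 60.2 to 77.6 CPM over its mutant arms. In group 2, 5 of the 7 tested were under the filter's minimum in at least 1 wildtype library, so no count of calls is given. Ly6a, Mecom and Procr were at 0 in the wildtype arm. No stem or progenitor marker was called in group 1, or 1 with the replicate block or without mutant replicate 1. Over all genes the block called 2863 of 14048 in group 1. The part of these markers' cells in the level of Gata2 was not tested.

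**Figure D4:**
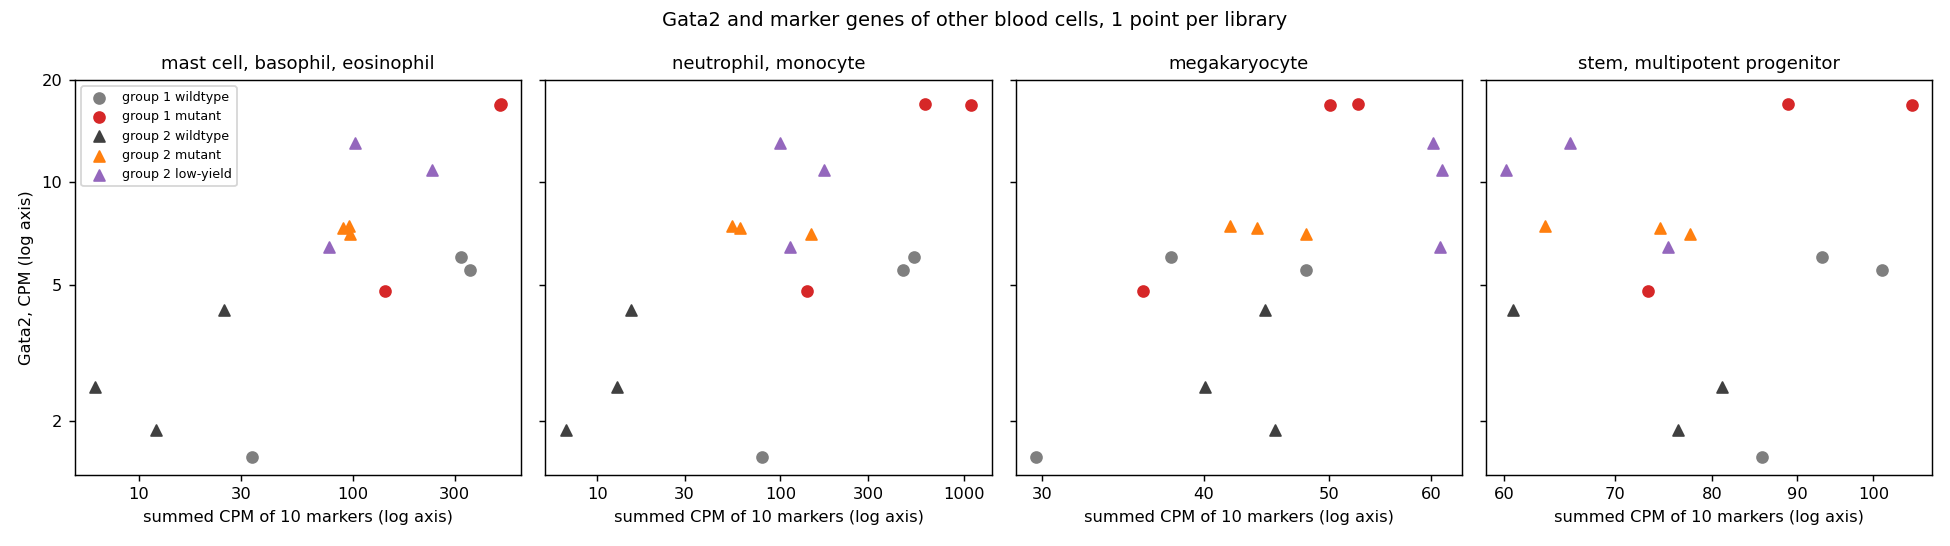
Gata2 CPM (vertical log axis) against the summed CPM of 10 marker genes (horizontal log axis) of 4 kinds of blood cell, 1 point per library; circles are group 1 and triangles group 2. In the panels of mast cell, basophil and eosinophil markers and of neutrophil and monocyte markers, the group 2 wildtype libraries lie lower left, at 6.28 to 25.1 and 6.73 to 15.3 CPM.

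Genes that GATA1 or KLF1 is known to activate were lower together with Klf1. Of 25 listed, 24 were tested (Ahsp was not matched by that symbol), and all 24 estimates were below 0 in each comparison with wildtype. In group 1, 20 were called lower, against 6.78% of all genes, and none higher, with a median log2 fold change of -0.87 against 0.01 over all genes. In the group 2 mutant 11 were called lower, against 2.95% (median -0.73 against -0.01), and in the low-yield mutant 18, against 5.86% (median -0.92 against -0.00352). Tspan33, a tetraspanin of erythroid cells, was at 195 to 206 CPM in group 1 wildtype and 95 to 110 CPM in mutant libraries. Its log2 fold change was -0.97 in group 1 (SE 0.07), -1.12 in low-yield libraries (SE 0.16, adjusted p 0.00147) and -0.86 for the other mutants of group 2 (SE 0.16, adjusted p 0.0111). E2f2, a cell-cycle factor of late erythroid divisions, fell by 0.91 in group 1, 0.76 in the group 2 mutant and 0.90 in the low-yield mutant. Slc4a1, the band 3 anion exchanger, fell by 2.07 in group 1 (SE 0.28, adjusted p 0.0173) and by 2.31 in the low-yield mutant (adjusted p 0.0256), and was at -1.96 in the group 2 mutant (adjusted p 0.0645).

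That list's count in the group 2 mutant was 5 without wildtype replicate 2, 7 without wildtype replicate 3, 3 without mutant replicate 1, 4 without mutant replicate 2 and 7 without mutant replicate 3. It was 17 with DESeq2 or with the replicate block (1452 and 1309 of 15024 genes called) and 7 with no filter on low counts. In the low-yield mutant it was 11 without wildtype replicate 2 or low-yield replicate 1 or 2, and in group 1 it was 17 to 20 on leaving out a library. Adult globin genes are on the list, and their near-identical copies may share reads. Among markers of the labelled cell type, 2 of 10 (Kit and Car1) were called higher in all 3 arms, and 6, 1 and 4 were called lower in group 1, the group 2 mutant and the low-yield mutant. The shares of all genes were 5.79%, 3.32% and 6.68% higher and 6.78%, 2.95% and 5.86% lower. The markers called in either direction numbered 4 in group 1 without wildtype replicate 2 or mutant replicate 3. In the group 2 mutant they numbered 0 without wildtype replicate 2 or mutant replicate 2. They numbered 1 without wildtype replicate 3 or mutant replicate 1 or 3, and 5 with the replicate block. In the low-yield mutant they numbered 3 without wildtype replicate 2 or 3 or low-yield replicate 1 or 2.

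Of 30 partners of the factors, 5 were called in group 1 (4 higher), 2 in the group 2 mutant and 2 in the low-yield mutant (all higher). In group 1 that is 16.7% against 12.6% of all genes called in either direction. In group 2 it is 6.67% in each arm against 3.32% and 6.68% of all genes called higher, counts too small to read anything from. Runx1, the core-binding factor that meets the GATA1 and TAL1 complex at many sites, was at 43.2, 42.6 and 44.4 CPM in group 1 wildtype and 70.0, 66.6 and 61.4 CPM in group 1 mutant libraries. In group 2 it was at 72.1, 79.1 and 70.2 CPM in wildtype, 104, 121 and 102 CPM in mutant and 117, 133 and 120 CPM in low-yield libraries. It did not overlap with wildtype in any arm, and its log2 fold change was 0.61 (SE 0.07), 0.56 (SE 0.09) and 0.74 (SE 0.09) in the 3 arms. Tcf4, an E-protein that can pair with TAL1, rose by 0.45, 0.46 and 0.49 (adjusted p 0.00283, 0.00880 and 0.00318). Mafg, a small Maf partner of NF-E2, was at -0.32 in group 1 (SE 0.06, adjusted p 0.00809), -0.22 in the group 2 mutant (adjusted p 0.174), with -0.27 in the fit over both groups (adjusted p 0.00155). The group 1 count was 3 without wildtype replicate 1 and 2 without wildtype replicate 2 or mutant replicate 3, and the low-yield count was 4 without low-yield replicate 3. The other partners, among them the subunits of the NuRD and LSD1 corepressors, ranged from -0.32 (Ssbp4) to 0.88 (Maff) in log2 fold change.

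Among 16 relatives of the factors in their own protein families, 9 were tested in each group. In group 1, 1 of 9 was called (11.1%), lower, in the group 2 mutant none, and in the low-yield mutant 1 (11.1%), higher, while 1766 of 14048 genes (12.6%) were called in either direction in group 1 and 1884 of 15024 in the low-yield mutant. Klf3, a repressor that KLF1 switches on, was lower in group 1 (-0.36, SE 0.07, adjusted p 0.00975), and its log2 fold change was -0.11 and -0.04 in the group 2 arms (adjusted p 0.653 and 0.850). The gene called in the low-yield mutant was Gfi1, the myeloid relative of Gfi1b, with 0.380, 0 and 0.134 CPM in wildtype and 1.31, 0.548 and 1.37 CPM in low-yield libraries. Only 1 of the wildtype libraries was over the filter's minimum, so Gfi1 passed through the mutant arms and its call is not read as a result. In group 1, 2 relatives were called with the replicate block (2863 of 14048 genes called) or without wildtype replicate 3, and none without mutant replicate 3.

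The 6 genes of progenitors that are silenced as GATA1 takes over had a median log2 fold change of 0.50 in group 1. No median is given for group 2, where Cd34 passed the filter through the mutant arms. In group 1, 2 of the 6 were called with DESeq2 and 3 with the replicate block, where 2307 and 2863 of 14048 genes were called. Kit, the receptor of stem cell factor, was the only 1 called in each mutant arm, higher, as were 5.79%, 3.32% and 6.68% of all genes. It was at 149, 163 and 171 CPM in group 1 wildtype and 191, 204 and 198 CPM in mutant libraries, and at 202, 180 and 155 CPM in group 2 wildtype, 240, 276 and 226 CPM in mutant and 247, 275 and 248 CPM in low-yield libraries. Kit did not overlap with wildtype in any arm, and its log2 fold change was 0.30 (SE 0.07, adjusted p 0.0126), 0.47 (SE 0.10, adjusted p 0.0136) and 0.52 (SE 0.10, adjusted p 0.00382). No gene of the 6 was called in group 1 without wildtype replicate 1 or 2 or mutant replicate 3, or in the group 2 mutant without wildtype replicate 2 or 3 or mutant replicate 2. In all, 2 were called in group 1 without wildtype replicate 3 or mutant replicate 1, and in the low-yield mutant without wildtype replicate 1 or low-yield replicate 3. Myc and Myb had log2 fold changes between -0.05 and 0.26, none called.

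Of 20 other blood transcription factors, 16 in group 1 and 14 in group 2 had every wildtype library over the filter's minimum, and the rest are not counted. Those called were 2 higher and 2 lower in group 1, 2 and 1 in the group 2 mutant, and 3 and 3 in the low-yield mutant, beside 5.79%, 3.32% and 6.68% of all genes higher and 6.78%, 2.95% and 5.86% lower. Mef2c, a factor of megakaryocytes and lymphoid and myeloid cells, rose by 1.38 (SE 0.31, adjusted p 0.0369), 2.02 (SE 0.22) and 2.24 (SE 0.22) in the 3 arms. Zbtb7a, a repressor of fetal-type globin genes, fell by 0.61, 0.49 and 0.58 (adjusted p 0.0193, 0.00236 and 0.000325). Sox6, which works beside BCL11A on globin genes, fell by 0.61 in group 1 (adjusted p 0.0152) and by 0.85 in the low-yield mutant (adjusted p 0.0322), and was at -0.72 in the group 2 mutant (adjusted p 0.0908). The group 1 count was 10 with the replicate block, 6 without mutant replicate 1, 1 without wildtype replicate 2, and 2 with no filter on low counts or without wildtype replicate 3 or mutant replicate 2 or 3. The low-yield count was 3 without wildtype replicate 2 or low-yield replicate 1 or 2 or with only the 6 compared libraries.

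Of the 3 embryonic globin genes, which BCL11A, SOX6 and ZBTB7A are known to restrain, Hbb-bh1 was called higher in group 2. It was at 17.8, 23.7 and 17.9 CPM in wildtype, 28.3, 41.9 and 35.2 CPM in mutant and 58.5, 52.6 and 79.1 CPM in low-yield libraries, with no overlap between the arms. Hbb-bh1 rose by 0.83 on the log2 scale for the mutant (SE 0.18, adjusted p 0.0209) and by 1.68 in low-yield libraries (SE 0.18, adjusted p 0.000193). In group 1 it ranged from 17.3 to 154 CPM in wildtype and from 48.3 to 99.3 CPM in mutant libraries, with a log2 fold change of 0.01 (SE 0.93, adjusted p 0.995). Wildtype replicate 3 was the highest, and without it the value was 1.33 (SE 0.56, adjusted p 0.295). No embryonic globin was called in the group 2 mutant without wildtype replicate 1 or 3 or mutant replicate 2 or 3, and 2 were called in the low-yield mutant without low-yield replicate 3. Hbb-y and Hba-x were not called in these comparisons with all libraries. Hbb-y was at -1.69 in group 1 (SE 1.18), -0.39 in the group 2 mutant (SE 0.48) and -0.03 in the low-yield mutant (SE 0.48) on the log2 scale. Hba-x was at -1.31 (SE 1.17), 0.08 (SE 0.38) and 0.48 (SE 0.38) in the same order. Without wildtype replicate 3 the group 1 values were -0.18 for Hbb-y and 0.37 for Hba-x, and the fit over both groups then called 1 embryonic globin.

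**Figure D5:**
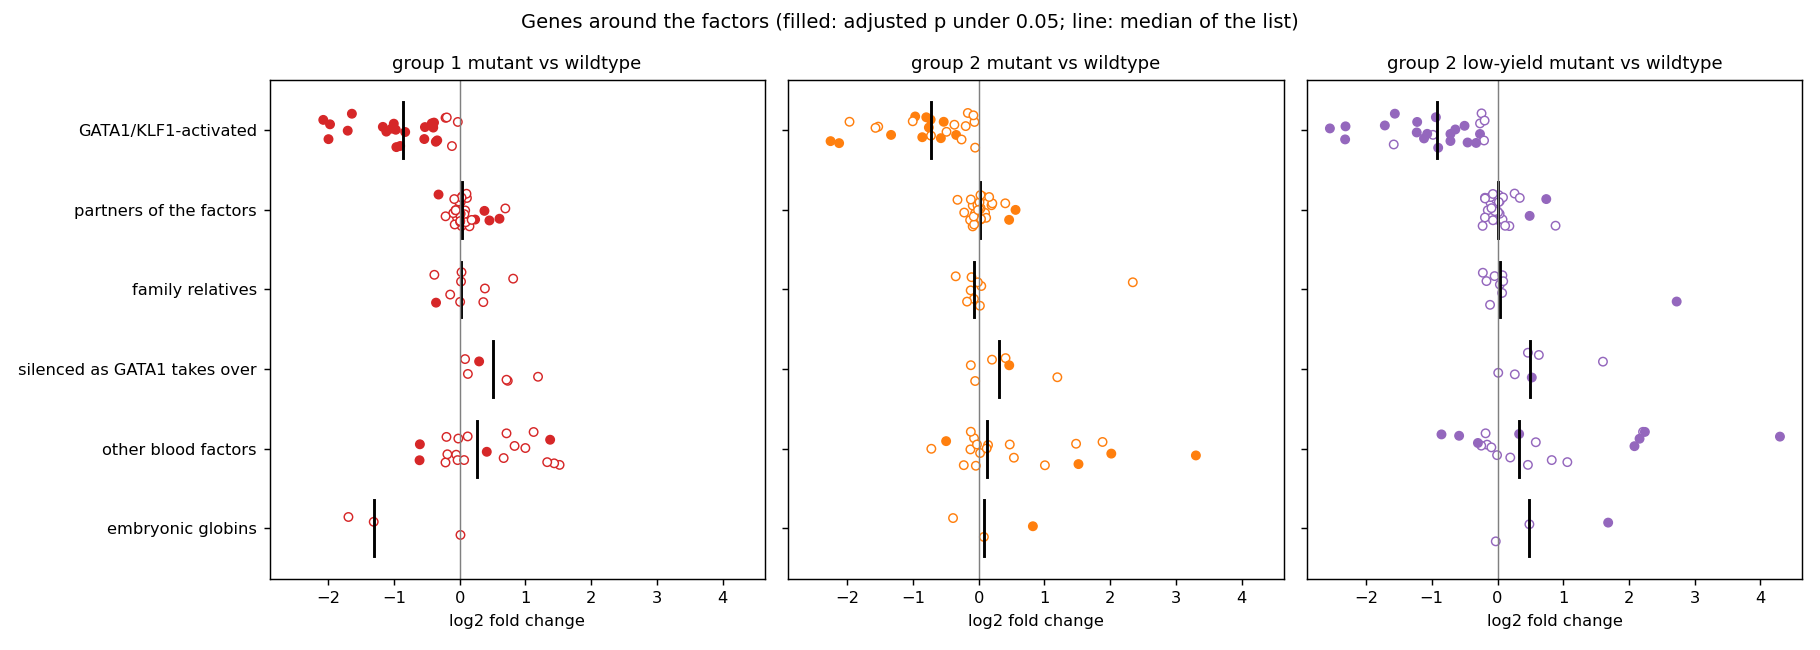
Log2 fold change against wildtype (horizontal axis) of each tested gene of 6 lists in 3 comparisons; filled points had an adjusted p under 0.05 and the line is the median of the list. All genes of the GATA1 and KLF1 activated list lie left of 0 in the 3 panels, with medians of -0.87, -0.73 and -0.92.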

How the data were processed

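RNA-seq libraries of 15 samples were analysed from estimated gene counts. The authors deposited the expected counts as whole numbers per gene and library, in a table for each group of mice. The submitters' processing notes name cutadapt 2.3, FastQC 0.11.8, STAR 2.7.8a, RSEM 1.3.3, MultiQC 1.7 and GRCm38. Strand use and annotation release are not given in the sources used here. A text sheet gave the genotype of group 2. Counts were filtered (filterByExpr), scaled by TMM and tested in R 4.3.3 with edgeR 4.0.16 (quasi-likelihood F test, robust). P-values were adjusted by Benjamini-Hochberg over all genes tested, with 95% intervals. Each group of mice was fitted on its own, group 2 with its 3 arms in 1 fit, and the 12 wildtype and mutant libraries of both groups in another. Exon lengths came from GENCODE M21 (GRCm38), and promoter sequences from RefSeq (GRCm38.p6).

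The genes and lists were chosen with earlier results of these data known. Named genes were the 10 factors and Rpl5, of each list up to 2 higher and 2 lower with the smallest p over both groups and the most abundant marker, and the 5 genes most like Gata2 and Klf1. Other names were chosen after their values were seen. The sample titles give replicate numbers but state no pairing, which was judged from the same measured values. In group 1 same-numbered wildtype and mutant libraries correlated at 0.254 to 0.610, which met the criterion used. Differently numbered ones correlated at -0.539 to 0.382, so the ranges overlapped. No replicates agreed within sampling noise. The fits were tested on simulated data. Alternatives were another scaling (RLE), no filter, DESeq2 1.42.0, the replicate block, only the 6 compared libraries of group 2, and leaving out each library.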

Additional observations from a re-analysis of the deposited data

How the results depend on the processing

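The lower level of Klf1 kept its direction and its call against wildtype in all alternatives run. Over the 10 factors and the comparisons with wildtype, 500 alternative estimates kept direction and side of the threshold, 31 lost the call, 4 gained it and 5 changed sign. The causes were not tested. Over all genes, group 1 gave 2863 calls with the replicate block and 753 to 1729 on leaving out a library. The group 2 mutant gave 1452 with DESeq2 and 425 to 1323 on leaving out a library, and the low-yield mutant 900 to 2395. Low-yield against mutant gave 6 with DESeq2 and 0 to 22, and the interaction 13 with DESeq2 and 5 with the replicate block. On leaving out a library, 1 to 2 factors were called in group 1, 1 to 3 in the group 2 mutant, 2 to 4 in the low-yield mutant and 3 to 5 over both groups. The signs that changed all belonged to estimates near 0 that were not called. For Gata1, low-yield against mutant was -0.000757 with RLE, -0.000723 with DESeq2 and -0.00337 with only the 6 compared libraries. For the interaction, Tal1 was -0.0181 with RLE, -0.00587 with no filter and -0.0182 with DESeq2, and Lmo2 was -0.0175 with RLE, -0.00677 with no filter and -0.0175 with DESeq2. On leaving out a library, Lmo2 ranged from -0.00443 to 0.124 in the group 2 mutant and Ldb1 from -0.0295 to 0.0615 in the low-yield mutant and from -0.0449 to 0.00372 over both groups. For low-yield against mutant the ranges were -0.0623 to 0.0488 for Gata1, -0.0384 to 0.0941 for Lmo2, -0.0576 to 0.0356 for Ldb1 and -0.0665 to 0.0107 for Bcl11a. For the interaction they were -0.573 to 0.184 for Gata2, -0.0211 to 0.126 for Klf1, -0.0688 to 0.0604 for Tal1, -0.0924 to 0.0353 for Lmo2 and -0.0231 to 0.0465 for Bcl11a.

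Replicate numbers of group 2 did not pair its libraries by the criterion used (same-number correlations 0.0178 to 0.355 for mutant and wildtype, -0.193 to 0.201 for low-yield and wildtype). In neither group of mice did every library correlate best with its own number. With the block, 1309 genes were called in the group 2 mutant, 2331 in the low-yield mutant and 0 between them, and the same number of factors as without it. In group 1, where the same-number correlations met the criterion, the block gained the call of Gata2 and changed no other call among the 10 factors.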
